A study of Mus musculus with 4 samples.

Results

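Splenic B cells of control mice 4 days after sheep red blood cells (day 4) were compared with splenic B cells of unimmunized control mice (day 0). A cell was taken from the B cell library when it had at least 200 detected genes, under 10% mitochondrial transcripts, a leading hashtag with at least 10 counts and 3 times those of the next hashtag, at least 1 Cd79a count and no Cd3e count. The control hashtags held 1101 such cells at day 0 and 1487 at day 4, together 2588 of the 6339 barcodes of the library and of the 15646 barcodes of both libraries of the series. The other B cells carried the hashtags of mice with Il2rb deleted in B cells (knockout), 982 at day 0 and 1950 at day 4, and their day 4 over day 0 values are given beside those of the control. CD4 T cells of the same 4 groups were in a second library.

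The mice were C57BL/6NRj and the immunized groups received the red blood cells intraperitoneally. The labels give CD19Cre/+ Il2rbfl/fl as the genotype of control and knockout alike and call the control hashtags Cre, so the group of a cell was read from the hashtag text. CD19Cre acts in B lineage cells and both genotypes carry it. Each group was 1 pool marked by 1 hashtag, and the number of mice in a pool, their age and their sex were not stated. There was therefore no replicate on either side, no test was possible and no p-value is given. Intervals are exact 95% intervals of counting error only, and a difference between the pools cannot be told apart from a difference between the mice that made them. "Higher" and "lower" below describe these 2 pools.

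Sheep red blood cells are a particulate antigen that needs T cell help for most of the antibody response. Responding B cells leave the resting state within days, take up signals from the antigen receptor, CD40 and cytokines, grow, divide, and later form germinal centers or antibody-secreting plasma cells. Resting follicular B cells recirculate through the follicles, marginal zone B cells stay at the border of the white pulp, and resting lymphocytes are kept quiescent by transcription factors such as KLF2 and FOXO1.

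The control pools summed to 5939120 transcript counts (unique molecular identifiers, UMIs) at day 0 and 11676416 at day 4, with medians of 4676 and 6076 UMIs per cell. Levels are therefore given as UMIs per 1000000 of the pool (CPM), and shares of cells after thinning each cell to 1500 UMIs, which left out 14 cells at day 0 and 5 at day 4. The own hashtag had a median of 2283 counts at day 0 and 4380 at day 4, against 150 and 57 for the next one. Just inside the hashtag rule, with 3 to 4 times the next hashtag, lay 39 control B cells, and 91 lay just outside with 2 to 3 times. There were 26 control cells with a single Cd79a UMI and 101 with none. The libraries shared 84 barcodes, 37 of them among these cells.

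The label was checked against defining markers. Ms4a1, which encodes CD20, was seen in 78.1% of thinned cells at day 0 and 80.1% at day 4, against 0 of 908 and 0 of 1969 CD4 T cells. The 10 T cell markers summed to 19.7 CPM at day 0 and 24.2 CPM at day 4, with 6 and 3 of them at 0 (Cd3e by the selection rule), and the 7 NK cell markers to 3.87 and 5.05 CPM. Myeloid RNA was higher at day 4: the 9 monocyte and macrophage markers summed to 53.4 and 263 CPM and the 9 neutrophil markers to 3.03 and 1731 CPM. Of the 7759 S100a8 UMIs at day 4, 7740 lay in 2 cells. Counts without cells that held a UMI of Cd3d, Cd3g, Trac, S100a8, S100a9, Lyz2, Csf1r or C1qa (foreign-marker cells) stand beside those over all cells. Their removal left 1044 cells at day 0 and 1381 at day 4, and cells with UMIs of only the other markers stayed in. Il2rb, the gene deleted in the knockout, gave 0 UMIs at day 0, with an upper limit of 0.62 CPM, and 11 UMIs at day 4, close to the detection limit at this depth.

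Among the 10147 genes with at least 50 UMIs in both control pools together, 628 stood at least 1.5-fold higher at day 4 (6.19%) and 584 at least 1.5-fold lower (5.76%). The median gene stood at a log2 ratio of −0.09, and 3831 genes were above 1. Under a scaling that sets the median gene to 0, the split was 744 higher and 366 lower, so list medians are best read against −0.09. Without the dividing, germinal center and plasma cells described below the counts were 370 and 484, and without the foreign-marker cells 528 and 602. In the knockout pools, which share no cells with this comparison, 445 of the 582 higher genes that could be counted lay on the same side of 1 and 237 of them past 1.5-fold (40.7%). Of the 564 lower genes counted there, 432 lay on the same side and 105 past the fold (18.6%). Of all 10265 genes counted in the knockout pools 4580 lay above 1 and 5685 below, with 3.96% past the fold upward and 3.59% downward. In control CD4 T cells 255 of the 442 higher genes counted were past the fold upward (57.7%), against 8.98% of all genes. Of the 383 lower genes counted there, 49 were past the fold downward (12.8%), against 3.38% of all genes.

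**Figure D1:**
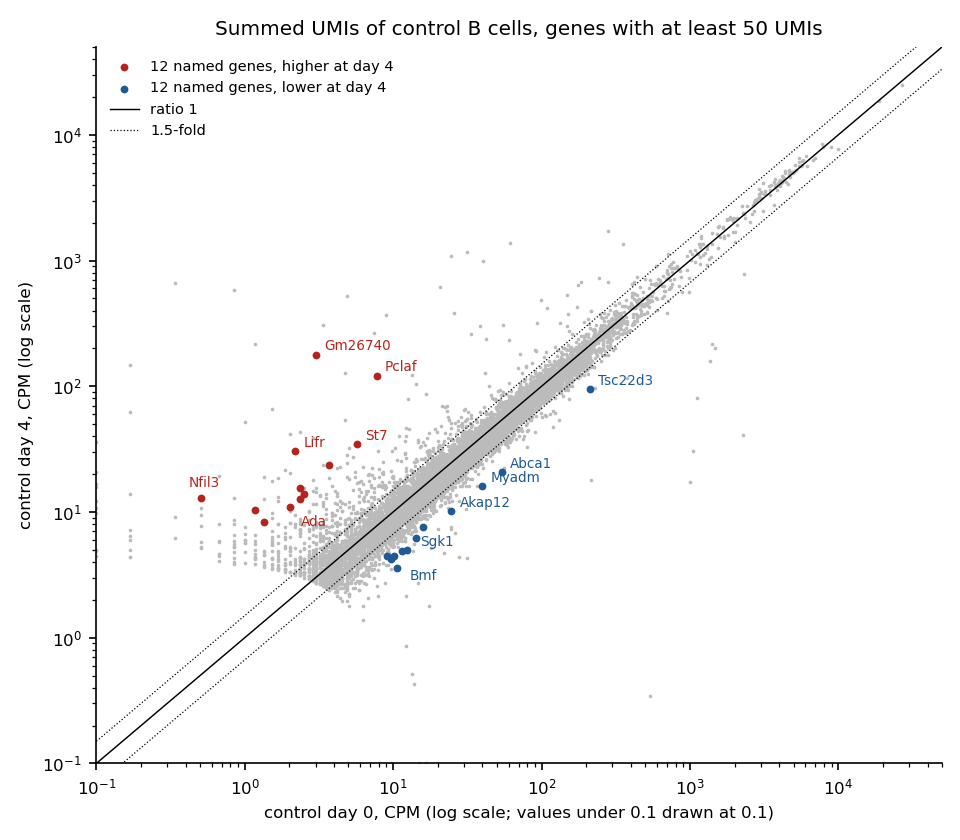
Summed level of each counted gene in control B cells at day 0 (x axis) and day 4 (y axis), in CPM on log scales; grey points are the 10147 counted genes, red and blue points the 12 highest and 12 lowest named by a fixed rule of size, 12 of them labelled. Most genes lie inside the dotted 1.5-fold lines and Gm26740 lies farthest above them among the named genes at 59.0-fold; the rule left out immunoglobulin segments and genes held largely by 1 cell, which stay grey.

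The genes with the largest ratios included activation genes, cell division genes, and Gm26740 and Ada, for which the knockout lay on the other side of 1. Nfil3, a basic leucine zipper transcription factor, stood at 0.505 CPM at day 0 and 13.0 CPM at day 4, a ratio of 25.8 (interval 8.65 to 126), with 9.54 in the knockout. Lifr, the receptor for leukemia inhibitory factor, stood at 2.19 and 30.7 CPM, a ratio of 14 (8.09 to 26.6), with 9.83 in the knockout. Both were low genes at day 0 and were seen in few cells at either time: Lifr in 0.552% of thinned B cells at day 0 and 5.26% at day 4, and in none of the thinned CD4 T cells of either control pool.

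Serpinb6b, a serine protease inhibitor, went from 2.36 to 15.6 CPM (6.61-fold, knockout 3.43) and St7 from 5.72 to 34.9 CPM (6.10-fold, knockout 3.91). The cell division genes on the list were Pclaf, a PCNA-binding factor, at 7.75 and 122 CPM (15.7-fold, knockout 2.64), Mybl2, Cdca3, Cdkn3 and Ncapg, with ratios of 5.46 to 8.79, and Ncapg stood at 0.978 after thinning. In the knockout Mybl2 stood at 2.42, Cdca3 at 2.26, Ncapg at 1.81 and Cdkn3 at 1.14 (0.769 to 1.73). Rmi2, a subunit of the complex that resolves recombination intermediates, stood 5.34-fold higher (knockout 3.27).

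Gm26740 and Ada differed between the control pools and not in the same way between the knockout pools. Gm26740, annotated as an antisense gene on the minus strand of chromosome 10 (mm10, 22187013 to 22302835), was at 3.03 CPM at day 0 and 179 CPM at day 4 in control B cells, but at 229 and 189 CPM in knockout B cells. In control CD4 T cells it was at 3.01 and 119 CPM. The control day 0 pool was therefore the low one in both libraries, at 0.644% of thinned B cells and 0.661% of thinned T cells, against 16.9% to 31.9% in the other 6 pools. Ada, adenosine deaminase, was at 2.02 and 10.96 CPM in the control and at 9.37 and 6.65 CPM in the knockout. For both genes the control day 0 pool was the lowest of the 4 B cell pools.

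The 12 genes with the smallest ratios belonged to no single list. Bmf, a pro-apoptotic BH3-only protein, was at 10.6 CPM at day 0 and 3.597 CPM at day 4, a ratio of 0.339 (0.224 to 0.509), with 0.277 in the knockout. Abca1, which exports cholesterol from cells, was at 54.0 and 20.9 CPM, a ratio of 0.387 (0.326 to 0.458; knockout 0.633). Tsc22d3, which encodes the glucocorticoid-induced leucine zipper, was at 211 and 94.7 CPM, a ratio of 0.449 (0.414 to 0.488; knockout 0.553), and was seen in 28.3% and 15.0% of thinned B cells. The kinase gene Sgk1 (0.399), Myadm (0.407), the scaffold gene Akap12 (0.411), Arhgap18 (0.426), Gm47730 (0.437), Gm28529 (0.437), the monocarboxylate transporter gene Slc16a7 (0.441), Gpat3 (0.471) and Psd3 (0.490) completed the 12. In the knockout all 12 were below 1, from 0.277 for Bmf to 0.945 for Gm28529.

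Lists of genes were read by the number of members past 1.5-fold and by their median log2 ratio. Of the 40 lists, mitosis, germinal center, DNA replication and cholesterol synthesis had the highest medians and quiescence factors, BAFF and TNF family, glucocorticoid-induced and BCL2 survival genes the lowest. The BCL2 survival median, −0.42, rests on 5 genes and was 0.076 after thinning. In the knockout 7 of these 8 lay on the same side of the all-gene median, the germinal center list being the exception.

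**Figure D2:**
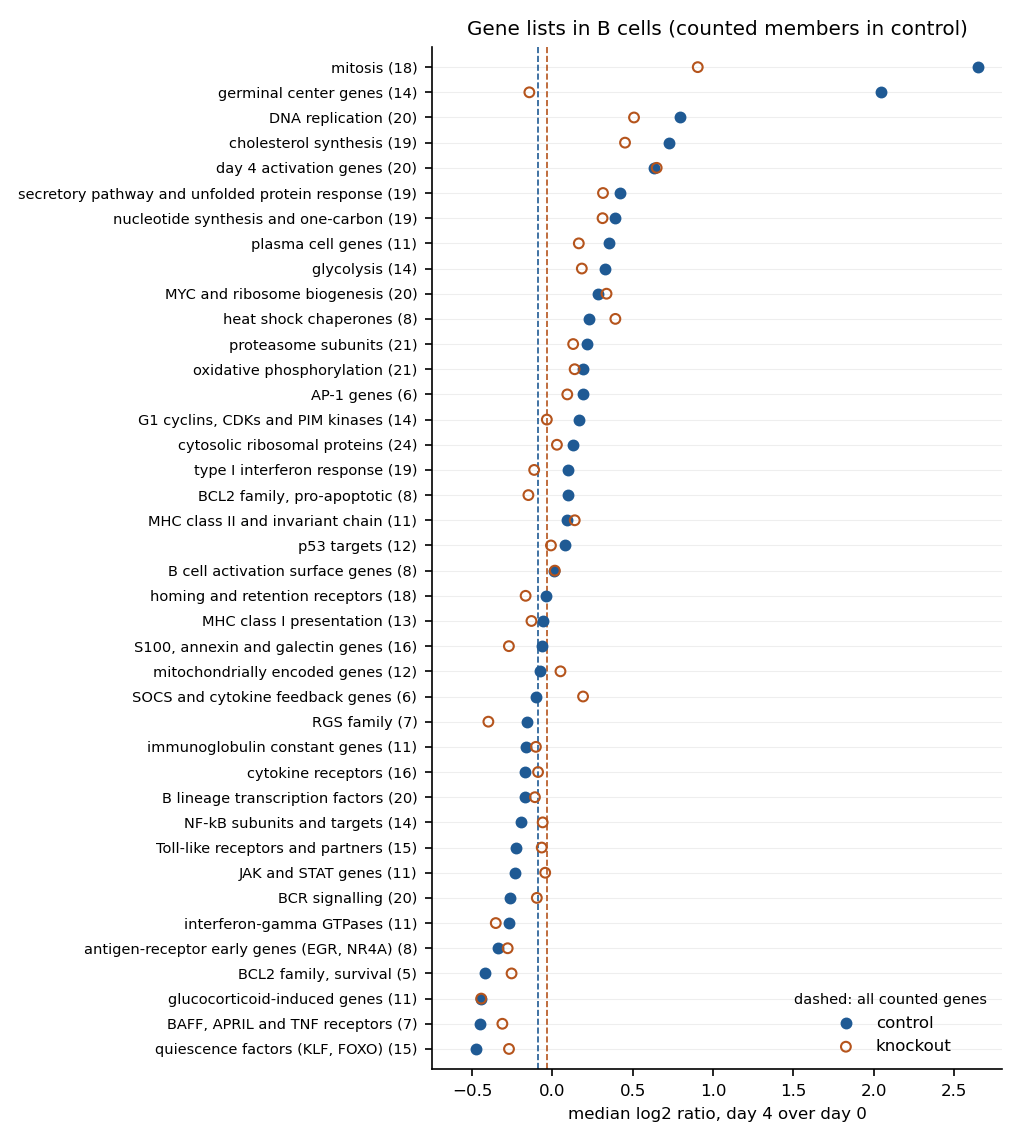
Median log2 ratio of day 4 over day 0 for each of 40 gene lists (rows; counted members in control in brackets) in control B cells (filled blue) and knockout B cells (open orange), with dashed lines at the median of all counted genes (−0.09 and −0.03). Mitosis (2.65) and germinal center genes (2.04) lie farthest to the right in the control and at 0.91 and −0.14 in the knockout, while day 4 activation genes (0.63 and 0.65) and glucocorticoid-induced genes (−0.44 and −0.44) lie together.

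The day 4 activation list holds 20 genes induced by antigen receptor, CD40 or cytokine signals. Its members were chosen from these data, so their direction is no independent evidence. In the control 16 of 20 stood above 1, 10 past 1.5-fold and 1 below the fold, with a median of 0.63. Samsn1, an adaptor that dampens antigen receptor signalling, stood at 99.5 CPM at day 0 and 482 CPM at day 4, a ratio of 4.85 (4.45 to 5.28). Gadd45g, a growth arrest and DNA damage response gene, stood at 22.9 and 63.4 CPM (2.77-fold). Both were higher in every gate that could be counted and in the knockout, where the ratios were 5.38 and 3.62.

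Other members of the list stood at or below 1. The early activation antigen Cd69 stood at 83.2 and 76.0 CPM and Ccnd2, cyclin D2, at 71.1 and 70.3 CPM, with both intervals spanning 1. Ebi3, a subunit shared by interleukin-27 and interleukin-35, was at 20.04 and 14.4 CPM (0.718; 0.564 to 0.916). Nfkbid, a nuclear inhibitor of NF-kB, was the member past the fold downward, at 61.3 and 35.7 CPM (0.583; knockout 0.614). Another list, of B cell activation surface genes, had 4 of 8 counted members above 1 and 2 past the fold upward. Its median was 0.0092 in the control and 0.015 in the knockout.

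Counted per cell, the activation genes were spread over much of the population. Of thinned cells, 34.5% had a UMI of none of the 20 genes at day 0 and 16.7% at day 4, and 4 or more of them were seen in 34 cells (3.13%; 2.18 to 4.34) at day 0 and 265 cells (17.9%; 15.96 to 19.9) at day 4. The knockout pools gave 3.98% and 20.1%. At least 2 Samsn1 UMIs were seen in 13 cells at day 0 (1.20%; 0.638 to 2.04) and 312 at day 4 (21.1%; 19 to 23.2), and a further 10.5% and 18.9% had 1 UMI. In control CD4 T cells 7.16% and 8.43% had a Samsn1 UMI after the same thinning, from median depths of 4573 and 5726 UMIs, against 11.7% and 39.9% of B cells from 4717 and 6085.5. The share with at least 2 UMIs at day 4 was 26.6% in the follicular gate, 18.3% outside every gate and 12.8% in the marginal zone gate, against 1.58%, 1.09% and 0% at day 0.

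**Figure D3:**
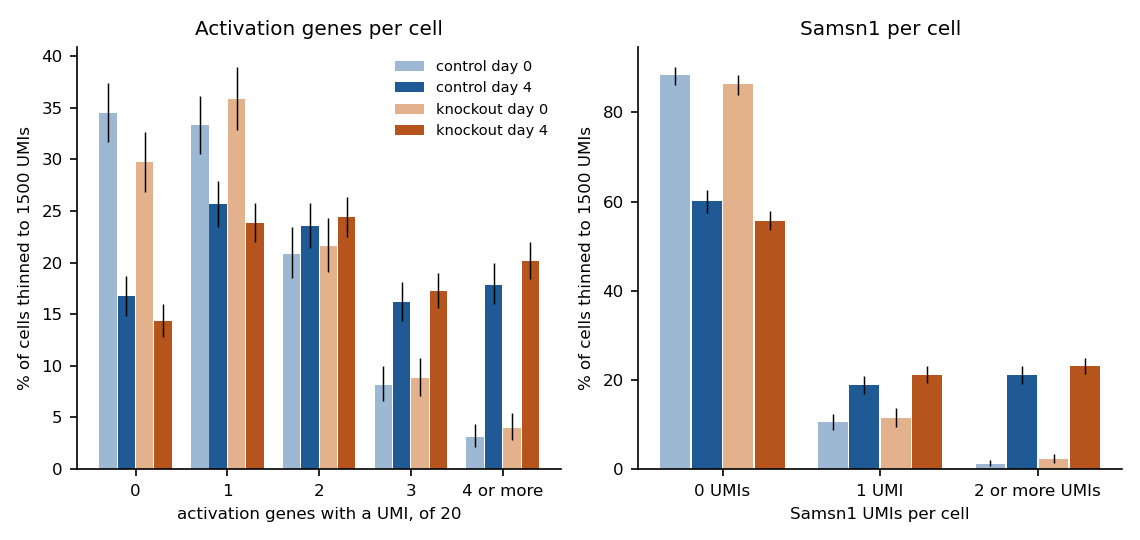
Share of thinned B cells (y axis, %) by the number of the 20 activation genes with a UMI (left) and by Samsn1 UMIs (right) in the 4 pools, with exact 95% intervals of counting error. Cells with 4 or more activation genes go from 3.13% to 17.9% in the control and from 3.98% to 20.1% in the knockout, and cells with at least 2 Samsn1 UMIs from 1.20% to 21.1% and from 2.25% to 23.1%.

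Samsn1 was then used to split the cells and see which other differences went with it. Within day 4, cells with at least 2 Samsn1 UMIs were set against cells with 0; of 9154 genes counted 3.82% stood at least 1.5-fold higher and 11.1% lower. Serpinb6b (3.97-fold), Gadd45g (3.82), Lifr (3.32), Il4i1 (3.12), Cd83 (3.06), Socs1 (2.92), St7 (2.89) and Socs3 (2.72) stood higher in the Samsn1 cells. Cholesterol genes (median 0.59, 10 of 19 past the fold), MHC class II genes (0.52) and the antigen-receptor early genes (0.63, 5 of 7) also stood higher there. Mitosis genes (−2.20), germinal center genes (−1.93), plasma cell genes (−1.78) and secretory genes (−0.61) stood lower. These medians come from summed UMIs, to which deep cells add most. Of the 20 dividing gate cells, with a median of 32832 UMIs, 17 had 0 Samsn1 UMIs and 2 had at least 2. The same split within knockout day 4 gave medians of 0.62 for cholesterol, 0.36 for MHC class II, 0.26 for antigen-receptor early, −0.42 for mitosis, −1.40 for germinal center, −0.82 for plasma cell and −0.23 for secretory genes. These cells were grouped by 1 of the activation genes, so the values describe which genes occur together.

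Cells with no Samsn1 UMI also differed between the days. In them 665 of 9674 genes were past the fold upward (6.87%) and 607 downward (6.27%). Their cholesterol median was 0.56, with 16 of 19 genes above 1. Glucocorticoid-induced genes had a median of −0.46, quiescence factors −0.40 and BAFF and TNF family genes −0.54. The lower groups were thus also seen in cells with no Samsn1 UMI after thinning, while MHC class II genes had a median of −0.05 there. The activation genes had a median of 0.67 in these cells, with 11 of 18 past the fold, against 0.63 over all cells. A cell with no Samsn1 UMI after thinning can still express the gene, so the split does not set apart cells without activation. Whether the lower groups differ in such cells was not tested.

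Cytokine feedback showed 2 high members among 6. Socs3 was at 4.88 CPM at day 0 and 19 CPM at day 4 (3.89-fold; 2.64 to 5.95; knockout 3.55) and Socs1 at 12.8 and 45.8 CPM (3.58-fold; 2.81 to 4.62; knockout 3.35). Both encode inhibitors of JAK kinases that are induced by STAT signalling. The other 4 counted members of the family, Socs4, Socs5, Socs6 and Socs7, lay between 0.769 and 0.933 with intervals that spanned 1, and the list median was −0.10. Among 11 JAK and STAT genes the kinase gene Jak3 was past the fold (22.1 and 36.8 CPM; 1.67) and Stat3 stood at 69.7 and 90.8 CPM (1.30; 1.16 to 1.46). Tyk2 (0.705), Stat6 (0.720) and Jak2 (0.746) stood lower, and the median was −0.24.

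Of the 16 cytokine receptors counted of 20, Lifr was past the fold upward and 4 were past it downward. Tgfbr2, the type 2 receptor for transforming growth factor beta, was at 160 and 101 CPM (0.627). Ifnar1, a chain of the type I interferon receptor, was at 50.01 and 31.3 CPM (0.627), Il10ra at 92.1 and 58.2 CPM (0.632) and Il27ra at 58.3 and 37.8 CPM (0.648). In the knockout these 4 lay between 0.715 and 0.866. Il2rg, the common gamma chain, was at 439 and 328 CPM in the control (0.747; 0.710 to 0.785) with 0.979 in the knockout. Il4ra (1.03) and Il21r (0.952), receptors for the cytokines of T cell help, had intervals that spanned 1.

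Quiescence factors stood lower together. Of the 15 members 14 were below 1, 3 of them past the fold downward, and 1 was past the fold upward. The median was −0.48 (knockout −0.27; control CD4 T cells −0.38). Klf2, a factor that keeps lymphocytes quiescent and recirculating, was at 707 CPM at day 0 and 479 CPM at day 4 (0.677; 0.650 to 0.705). The antiproliferative genes Btg1, at 1294 and 927 CPM (0.716), and Tob1, at 13.0 and 7.79 CPM (0.601), and the forkhead factor gene Foxo3, at 31.5 and 20.8 CPM (0.661), also stood lower. Klf4 was the member above 1 and past the fold upward, at 2.86 and 4.45 CPM with a ratio interval of 0.885 to 2.87.

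None of the 11 counted glucocorticoid-induced genes (of 13) stood above 1, 4 were past the fold downward, and the median was −0.44 in control and knockout and −0.36 in control CD4 T cells. Besides Sgk1 and Tsc22d3, these were Txnip, an inhibitor of glucose uptake, at 251 and 160 CPM (0.635), and the chemokine receptor gene Cxcr4, at 39.2 and 24.2 CPM (0.618). Fkbp5, Klf9, Dusp1 and Per1, which are also induced by glucocorticoids, lay between 0.932 and 0.989 with intervals that spanned 1. Tsc22d3 is also a member of the quiescence list.

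Quiescence, glucocorticoid-induced and BAFF and TNF family genes were also lower in the follicular gate and outside every gate, whereas the BCL2 survival median was 0.02 in the follicular gate and −0.02 in the marginal zone gate. In the follicular gate quiescence factors had a median of −0.41 with 14 of 14 below 1, glucocorticoid-induced genes −0.49 with 9 of 9, and BAFF and TNF family genes −0.45 with 7 of 7. Outside every gate the medians were −0.43, −0.44 and −0.42. In these gates all genes had medians of −0.09 in each, with 3.67% and 6.26% of genes past the fold upward and downward in the follicular gate and 4.37% and 6.38% outside every gate.

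Homing receptors differed in both directions, with 4 of 18 past the fold upward and 3 downward. Ccr7, the receptor that draws B cells to the T cell zone, was at 154 CPM at day 0 and 79.0 CPM at day 4 (0.514; 0.468 to 0.563; knockout 0.583). It was lower in the follicular gate (0.537) and outside every gate (0.515). In the marginal zone gate the ratio was 0.789, and the levels of 69.9 CPM (48.9 to 96.7) and 55.1 CPM (42.9 to 69.7) had intervals that overlapped. The integrin gene Itgb7 was at 86.4 and 56.7 CPM (0.656), S1pr1, which directs exit from lymphoid tissue, at 178 and 128 CPM (0.723), and the follicle-homing receptor gene Cxcr5 at 131 and 95.7 CPM (0.732). Cxcr3 was at 2.36 and 8.82 CPM (3.74-fold; knockout 3.55). Gpr183, which guides cells to the outer follicle and is also in the activation list, was at 155 and 196 CPM (1.26; 1.17 to 1.37). Ccr2 had 1 UMI at day 0 and 7.19 CPM at day 4, with a ratio interval of 7.46 to 1707, and stood at 0.529 in the knockout.

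Of the 7 BAFF, APRIL and TNF family genes counted of 12, 2 were past the fold downward, 1 stood above 1, and the median was −0.45 (knockout −0.31). Ltb, lymphotoxin beta, which keeps the follicular stroma organized, was at 988 CPM at day 0 and 558 CPM at day 4 (0.565; 0.545 to 0.586; knockout 0.712). Lta, its partner, was at 37.4 and 23.6 CPM (0.632). The BAFF receptor gene Tnfrsf13c (0.739) and the TACI gene Tnfrsf13b (0.731) were at 289 and 231 CPM at day 0 and 214 and 169 CPM at day 4.

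Antigen receptor signalling genes stood slightly lower. Of 20, 18 were below 1 and none was past the fold, with a median of −0.27 (knockout −0.10). Cd79a, a signal-transmitting chain of the receptor that also served to pick the cells, was at 3715 and 2785 CPM (0.750), the inhibitory coreceptor gene Cd72 at 257 and 177 CPM (0.687) and the adaptor gene Dok3 at 195 and 133 CPM (0.679). Cd22 (308 and 316 CPM; 1.03) and the kinase gene Fyn (1.06) had intervals that spanned 1. Of the 8 counted antigen-receptor early genes (of 11), Egr3 (29.3 and 18.4 CPM; 0.628) and Ier5 (280 and 177 CPM; 0.633) were past the fold downward, and the median was −0.34 (knockout −0.28).

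NF-kB genes had 1 of 14 counted members past the fold: Nfkb2, of the noncanonical pathway, at 105 and 59.4 CPM (0.565; knockout 0.870). Traf1, an NF-kB target, stood at 23.4 and 33.7 CPM (1.44; 1.19 to 1.76) and at 2.09 in the follicular gate. The median was −0.20.

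B lineage transcription factors had a median of −0.17, with 14 of 20 below 1. Id3, an inhibitor of E proteins, was at 227 and 143 CPM (0.627; knockout 0.781) and Spib at 219 and 145 CPM (0.661; knockout 0.762), both past the fold. Ets1, a factor that restrains plasma cell formation, was at 393 and 279 CPM (0.710), Ebf1, an early B cell factor, at 992 and 729 CPM (0.734), and Bach2, a repressor of plasma cell genes, at 207 and 158 CPM (0.765). Pax5 (0.948) and Bcl11a (0.987) had intervals that spanned 1. Id2 was past the fold upward, at 3.54 and 7.71 CPM (2.18; 1.34 to 3.69; knockout 1.11).

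MHC class II genes differed by small steps. Of 11 members 8 stood above 1, none was past 1.5-fold, and the median was 0.09. Ciita, the transactivator of the class II genes, was at 175 and 239 CPM (1.37; 1.27 to 1.47; knockout 1.42), H2-DMa, a chain of the peptide-loading factor, at 407 and 519 CPM (1.27), and H2-DMb1 at 94.3 and 116 CPM (1.23). H2-Aa (1.02), H2-Ab1 (1.06) and H2-Eb1 (1.05), the class II chains themselves, lay close to 1. H2-Ob, a subunit of the inhibitor of peptide loading, was at 604 and 498 CPM (0.824; knockout 0.994).

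Survival genes were split. Bcl2a1d was at 29.3 and 51.5 CPM (1.76; 1.48 to 2.09), with 2.58 in the follicular gate and 1.17 outside every gate; it has near-identical copies, so its counts are uncertain. Bcl2 (109 and 77.5 CPM; 0.714), Mcl1 (517 and 387 CPM; 0.749) and Bcl2l2 (0.480) stood lower. Of the 8 pro-apoptotic genes counted of 10, Bmf was past the fold downward, Bbc3 had a ratio of 1.74 with an interval of 0.946 to 3.43, and Bid, Bak1, Bad and Bax lay between 0.986 and 1.17.

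Cholesterol synthesis was the metabolic list with the largest difference, with 18 of 19 genes above 1, 12 past 1.5-fold and a median of 0.73. The pathway makes sterols and isoprenoids from acetyl-CoA and is switched on by SREBP-2 when membrane sterol is low. Fdps, farnesyl diphosphate synthase, was at 23.4 CPM at day 0 and 57.2 CPM at day 4 (2.44-fold), Idi1, isopentenyl diphosphate isomerase, at 16.8 and 39.0 CPM (2.31-fold), and Insig1, a sterol sensor, at 11.3 and 25.4 CPM (2.25-fold).

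Squalene epoxidase, Sqle, was at 8.42 and 17.3 CPM (2.05-fold) and Hmgcs1 at 21.6 and 29.1 CPM (1.35-fold). Srebf2, which encodes SREBP-2, was at 81.8 and 84.5 CPM (1.03; 0.926 to 1.15), and Dhcr7 (0.850; 0.638 to 1.14) was the member below 1. Abca1, the exporter described above, had the opposite direction. The control day 0 pool, which both comparisons share, was also lower than the knockout day 0 pool for this list: knockout over control at day 0 had 18 of 19 genes above 1 and 8 past the fold upward, against 2.55% of all genes, with a median of 0.34.

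Cholesterol genes had a higher median in the follicular gate than over all cells. There 16 of the 17 genes counted were above 1, 12 past the fold, and the median was 0.82; Idi1 stood 3.46-fold and Fdps 3.17-fold higher. Outside every gate the median was 0.51 with 9 of 19 past the fold, and in the knockout 0.45 with 17 of 19 above 1 and 6 past the fold. In the marginal zone gate the median was negative when the gates were drawn on unthinned cells, with the value given at the end of the report. The list summed to 333 and 505 CPM over all cells and to 336 and 504 CPM without the dividing, germinal center and plasma cells. In control CD4 T cells, where 8.98% of genes were past the fold upward, its median was 0.20. Whether the gates differ from each other could not be tested with 1 pool a day.

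**Figure D4:**
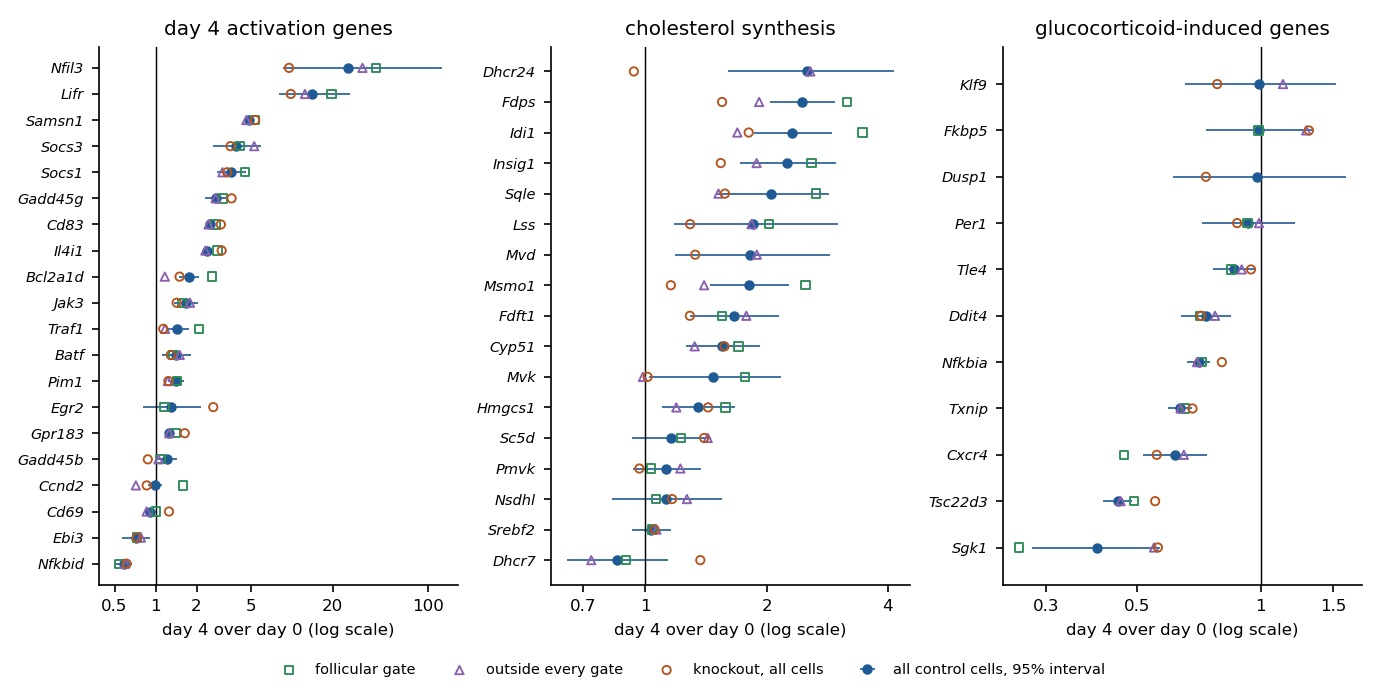
Day 4 over day 0 ratio (x axis, log scale) of counted genes of 3 lists (17 of the 19 cholesterol genes are drawn) in all control B cells (blue, with exact 95% intervals), the follicular gate (squares), the cells outside every gate (triangles) and all knockout B cells (open orange circles). Activation genes run from Nfil3 at 25.8 to Nfkbid at 0.583, 10 of the 17 cholesterol genes drawn lie beyond 1.5 with the follicular squares of Idi1 and Fdps to the right of the others, and no glucocorticoid-induced gene lies above 1 in all control cells.

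SREBP-2 acts through sterol regulatory elements, and a literal search for TCACNCCAC on both strands found it in the RefSeq promoter window (GRCm38.p6, 250 bases before to 50 after the start) of 1 of the 13 cholesterol genes with a window, Hmgcs1, against 1.44% of 27025 genes. The window lies at chr13:119690101-119690400 on the plus strand and is shown, with the match in capitals, because it is the window of this list that holds a match.
Hmgcs1: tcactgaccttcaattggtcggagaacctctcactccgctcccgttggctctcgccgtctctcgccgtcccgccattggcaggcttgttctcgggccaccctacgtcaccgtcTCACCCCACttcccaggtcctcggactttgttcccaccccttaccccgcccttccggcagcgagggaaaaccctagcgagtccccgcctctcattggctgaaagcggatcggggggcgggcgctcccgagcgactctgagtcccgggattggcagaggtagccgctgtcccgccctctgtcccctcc

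Genes of the secretory pathway stood higher over the whole pool and had smaller medians within the gates. Of the 19 counted of 20, 18 were above 1 and 5 past the fold, with a median of 0.42 (knockout 0.32). Xbp1, the transcription factor of the unfolded protein response, was at 92.3 and 191 CPM (2.08-fold), the secreted chaperone gene Manf at 153 and 273 CPM (1.79-fold) and Hsp90b1, the chaperone GRP94, at 586 and 908 CPM (1.55-fold; knockout 2.04). Hspa5, the chaperone BiP, was at 320 and 398 CPM (1.25-fold).

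In the follicular gate the list median was 0.21 and outside every gate 0.05, and Hsp90b1 stood at 1.01 and 1.04 there. In the marginal zone gate the median was 0.29, with 13 of 17 genes above 1 and 5 past the fold, and −0.033 when the gates were drawn on unthinned cells. The list summed to 2947 and 4071 CPM over all cells and to 2701 and 2874 CPM without the dividing, germinal center and plasma cells. The plasma gate held 5 thinned cells at day 0 and 12 at day 4, with median depths of 17649 and 34132 UMIs, and 28.6% of the list's UMIs at day 4 against 9.75% at day 0. Xbp1 belongs to the list and to the plasma gate, so part of these shares follows from the gate.

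The endoplasmic reticulum stress element, CCAAT and CCACG with any 9 bases between them, searched on both strands, was found in the promoter windows of 5 of the 18 secretory genes with a window (Creld2, Dnajc3, Hsp90b1, Hspa5 and Pdia6), against 37 of 27025 genes (0.137%). Those of Hspa5 (chr2:34771840-34772139, plus strand), Hsp90b1 (chr10:86705395-86705694, minus strand) and Creld2 (chr15:88819396-88819695, plus strand) are printed 5′ to 3′ with each match in capitals, to show the spacing of the element and that it occurs in either orientation. Hsp90b1 has 2 matches. Over the whole pool the 5 genes stood between 1.17-fold (Dnajc3) and 1.55-fold (Hsp90b1) higher, but without dividing, germinal center and plasma cells Hsp90b1 stood at 0.974 and Creld2 at 0.778.
Hspa5: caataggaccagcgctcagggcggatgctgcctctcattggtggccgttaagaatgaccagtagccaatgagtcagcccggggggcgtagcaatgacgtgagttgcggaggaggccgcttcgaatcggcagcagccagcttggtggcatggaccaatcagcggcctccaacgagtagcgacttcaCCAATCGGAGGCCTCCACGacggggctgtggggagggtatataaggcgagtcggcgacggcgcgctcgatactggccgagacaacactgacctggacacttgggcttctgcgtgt
Hsp90b1: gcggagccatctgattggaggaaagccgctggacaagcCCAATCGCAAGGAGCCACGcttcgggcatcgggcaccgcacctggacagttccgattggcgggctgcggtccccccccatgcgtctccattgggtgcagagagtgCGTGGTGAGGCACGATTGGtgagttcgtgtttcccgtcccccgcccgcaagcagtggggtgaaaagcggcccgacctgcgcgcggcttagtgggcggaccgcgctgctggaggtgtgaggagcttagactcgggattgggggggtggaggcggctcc
Creld2: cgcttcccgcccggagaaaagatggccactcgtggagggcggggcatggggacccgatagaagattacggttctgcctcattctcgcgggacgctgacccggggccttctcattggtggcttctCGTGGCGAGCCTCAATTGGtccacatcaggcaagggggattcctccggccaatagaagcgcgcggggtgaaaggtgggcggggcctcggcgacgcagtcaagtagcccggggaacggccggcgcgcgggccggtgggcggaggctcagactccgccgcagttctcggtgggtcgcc

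Mitosis genes had the largest median of the lists and rested on few cells. All 18 mitosis genes were past 1.5-fold, with a median of 2.65 (knockout 0.91; control CD4 T cells 3.91). Between the unimmunized pools, knockout over control, the 13 mitosis genes counted were all past the fold upward with a median of 1.40, so the control day 0 pool was the lower of the 2. Such genes pass the count minimum mainly through the pool where they are high. Mki67, a marker of cycling cells, was at 14.3 and 104 CPM (7.25-fold), topoisomerase Top2a at 12.6 and 79.1 CPM (6.27-fold) and the kinase gene Cdk1 at 1.35 and 19.1 CPM (14.2-fold). The dividing gate, at least 3 of 10 mitosis markers, held 3 of 1087 thinned cells at day 0 (0.276%; 0.0570 to 0.804) and 20 of 1482 at day 4 (1.35%; 0.826 to 2.08), a ratio of 4.89 (1.45 to 25.7) against 2.52 in the knockout. These 20 cells had a median of 32832 UMIs and held 58.9% of the mitosis UMIs of day 4. They were picked by UMIs of genes of this list, among them Mki67, Top2a and Cdk1, so a high share follows in part from the gate.

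DNA replication genes were less concentrated in the dividing gate than mitosis genes but also drew on few deep cells. The dividing gate held 28.4% of the list's UMIs at day 4 and the plasma gate 8.09%, against 2.94% and 0.449% at day 0. Of 20, 19 were above 1 and 17 past the fold, with a median of 0.80 (knockout 0.51), and 0.62 in the follicular gate and 0.54 outside every gate. The follicular value was −0.05 when the gates were drawn on unthinned cells. The median over all cells was smaller after thinning, with each cell weighted equally and without the deepest 1% of cells, with values given at the end of the report. Mcm2, of the replicative helicase, was at 15.3 and 33.4 CPM (2.18-fold), Gins2 at 3.54 and 13.0 CPM (3.68-fold), the helicase subunit gene Mcm6 at 32.2 and 62.4 CPM (1.94-fold) and the sliding clamp gene Pcna at 48.3 and 79.2 CPM (1.64-fold). Cdt1, a licensing factor, was below 1 (0.828; 0.711 to 0.964). The list summed to 413 and 790 CPM over all cells and to 406 and 566 CPM without the dividing, germinal center and plasma cells. Nucleotide synthesis genes had 18 of 19 above 1 and 6 past the fold, with a median of 0.39, led by the ribonucleotide reductase gene Rrm2 at 4.71 and 54.1 CPM (11.5-fold) and the thymidylate synthase gene Tyms at 5.56 and 20.6 CPM (3.71-fold).

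**Figure D5:**
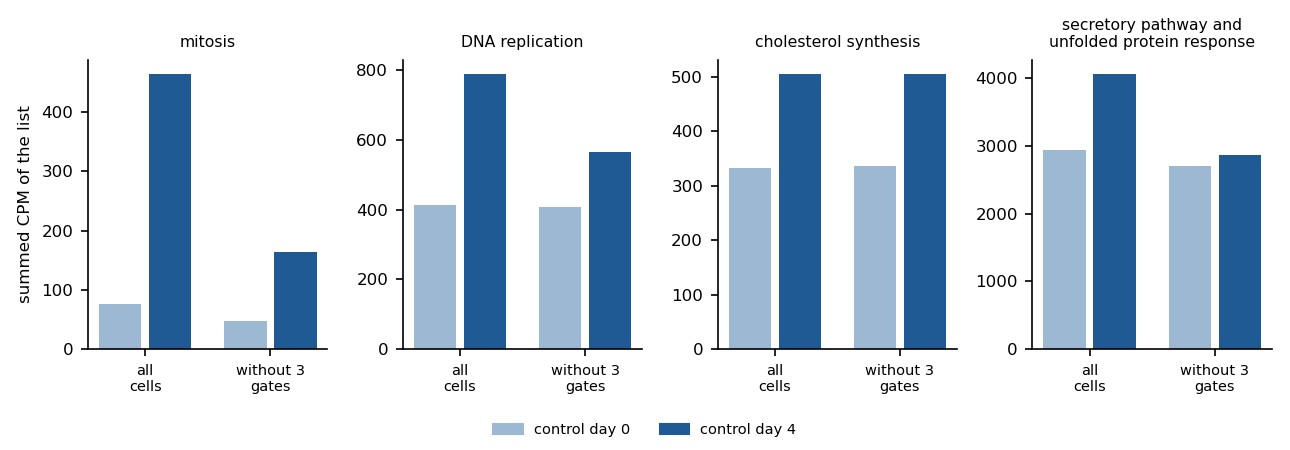
Summed CPM of 4 gene lists in control B cells at day 0 (light) and day 4 (dark), over all cells and without the cells of the dividing, germinal center and plasma gates (1093 and 1453 cells left); there are no error bars because each day is 1 pool. The mitosis sum at day 4 goes from 465 to 163 CPM and the secretory sum from 4071 to 2874 CPM when those cells are left out, while the cholesterol sum stays near 505 CPM. The gates use genes of the first and last of these lists (Mki67, Top2a and Cdk1 in the dividing gate, Xbp1 in the plasma gate), so part of both drops was fixed by the gate rule.

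Growth genes stood modestly higher. Of 20 MYC targets and ribosome biogenesis genes 18 were above 1 and 1 past the fold, with a median of 0.28 (knockout 0.34). That gene was the spermidine synthase gene Srm, at 46.0 and 85.7 CPM (1.87-fold). Nucleolin, Ncl, was at 411 and 550 CPM (1.34-fold) and Npm1 at 744 and 933 CPM (1.25-fold), whereas Myc itself was at 69.7 and 70.2 CPM. All 24 cytosolic ribosomal protein genes were above 1 with none past the fold and a median of 0.13, and 20 of 21 oxidative phosphorylation genes were above 1 with a median of 0.19. Of the 14 glycolysis genes counted of 15, 10 were above 1, with Gapdh at 710 and 1136 CPM (1.60-fold) and Ldha, lactate dehydrogenase, at 185 and 250 CPM (1.35-fold). Proteasome subunits had 20 of 21 above 1 and a median of 0.21.

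Several germinal center genes were near 0 at day 0. Of the 14 counted of 15, 12 were above 1 and 10 past the fold upward, against 6.19% of all counted genes. The median was 2.04, or −0.11 after thinning, where fewer of them could be counted. Genes near 0 at day 0 pass the count minimum mainly through day 4, so their direction was largely fixed by that minimum. The number past the fold and the median therefore follow in part from the minimum. Mef2b, a transcription factor gene of germinal center cells, was at 1.68 and 18.8 CPM (11.1-fold) and S1pr2 at 0.842 and 5.22 CPM (6.21-fold). Gcsam had no UMI at day 0 and 12.2 CPM at day 4, at least 24.2-fold higher against a floor of 3 counts over the pool. The germinal center gate held 0 of 1087 thinned cells at day 0, an upper limit of 0.339%, and 7 of 1482 at day 4 (0.472%). The knockout pools did not show the same: the median was −0.14, Mef2b stood at 0.903 (0.711 to 1.16), and the gate held 6 cells at each time. Mef2b was at 17.4 CPM in the knockout day 0 pool and 15.7 CPM at day 4, so the control day 0 pool was again the low one of the 4. The list summed to 537 and 548 CPM once dividing, germinal center and plasma cells were left out. Mef2b, S1pr2 and Gcsam also define the germinal center gate, so part of this removal was fixed by the gate rule.

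Type I interferon response genes were close to the background, and interferon-gamma induced GTPases stood lower. Of 19 type I interferon response genes 11 were above 1 and 1 past the fold, Isg15, a ubiquitin-like modifier, at 27.4 and 48.2 CPM (1.76-fold; knockout 1.15), and the median was 0.10, against −0.11 in the knockout and 0.61 in control CD4 T cells. In the marginal zone gate, where 6.88% of genes were past the fold upward and 9.47% downward, 7 of 8 were above 1, 3 past the fold, and Isg15 stood 3.6-fold higher. Of the 11 interferon-gamma induced GTPases counted of 14, 9 were below 1, with Tgtp2 at 29.6 and 17.1 CPM (0.578) and Irgm2 at 13.6 and 8.99 CPM (0.659), and the median was −0.27. Plasma cell genes had a median of 0.35 with 4 of 11 past the fold, and the remaining 11 lists, among them B cell activation surface, AP-1, RGS, p53, Toll-like receptor, MHC class I, heat shock and mitochondrially encoded genes, had medians of −0.23 to 0.23.

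Among those 11 lists, 2 held members far apart. Of the 16 S100, annexin and galectin genes 6 were past the fold upward, and in the knockout these 6 lay between 0.622 and 1.30. Anxa2, a membrane-binding annexin, was at 5.39 and 27.2 CPM (5.05-fold; 3.51 to 7.52; knockout 0.821), S100a6, a calcium-binding protein gene, at 29.8 and 64.9 CPM (2.18-fold; knockout 0.803) and Lgals1, galectin-1, at 30.3 and 52.7 CPM (1.74-fold; knockout 1.30). Without the foreign-marker cells Anxa2 stood at 4.06, S100a6 at 1.68 and Lgals1 at 1.52. S100a10 was the member past the fold downward, at 313 and 202 CPM (0.646; knockout 0.829). Of the 11 immunoglobulin constant genes 4 were past the fold upward, Ighg1, Ighg2c, Ighg3 and Igha, and a single cell held between 49.9% and 56.1% of the day 4 UMIs of each.

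The gates held similar shares of thinned cells at both times. A follicular cell had an Fcer2a UMI and at most 1 marginal zone gene, a marginal zone cell no Fcer2a UMI and at least 2 marginal zone genes. After thinning the follicular gate held 40.8% of cells at day 0 and 42.2% at day 4 (ratio 1.03; 0.913 to 1.17; 0.865 on unthinned cells), the marginal zone gate 7.18% and 9.51% (1.33; 0.999 to 1.77), and 50.6% and 46.0% lay outside every gate. Transitional cells numbered 8 and 11 and B1 cells 2 and 4. The gates rest on few genes, so a cell outside them is not thereby of another type. Plasma cells were 5 and 12 (1.76; 0.577 to 6.38).

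UMIs of switched heavy chains were seen in more cells at day 4 for Ighg1 and Ighg2b. Ighg1 UMIs were seen in 3 cells at day 0 and 33 at day 4 (0.0920% and 1.15% of thinned cells) and Ighg2b UMIs in 13 and 79 (0.552% and 2.36%). A single cell held 55.5% of the Ighg1 UMIs at day 4 and another 95.8% of the Ighg2b UMIs at day 0, so levels of these genes are not compared. In the knockout pools thinned shares were 0.204% and 0.565% for Ighg1 and 1.02% and 1.44% for Ighg2b. At least 5 UMIs were seen in 1 and 18 control cells for Ighg1 and in 8 and 29 for Ighg2b. The thinned shares of Igha (1.01% and 1.48%) and Ighg2c (0.276% and 0.607%) had intervals that overlapped. None of the 908 and 1969 thinned control CD4 T cells had a UMI of these 4 genes, but they were in the other library, so free RNA in the B cell library was not measured by them.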

How the data were processed

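Splenic B cells and CD4 T cells were measured in 2 single-cell 5' libraries, each of 4 hashtagged pools. The authors deposited counts of unique molecular identifiers for 32285 genes and 4 hashtags per cell, made with Cell Ranger 5.0.0 on mm10 per the submitters' processing notes. Cells were kept, assigned to a hashtag and gated as given in the report, and a cell whose leading hashtag was under 3-fold the next was treated as a doublet and dropped, with no other doublet caller. UMIs were summed per pool and scaled to a total of 1000000 (CPM). Ratios have conditional exact binomial intervals, levels exact Poisson intervals and shares exact (Clopper-Pearson) intervals, all at 95%. They cover counting error only, and PCR duplicates are already collapsed by the UMIs. Genes with at least 50 UMIs in both pools together were counted, and past the fold means a ratio of at least 1.5 or at most its inverse. Shares and gates used cells thinned at random to 1500 UMIs. Where a pool was at 0, a floor of 3 counts gave the limit.

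Gates were applied in order: plasma (at least 4 of 8 genes), germinal center (3 of 9), transitional (Cd93), B1 (2 of 6), marginal zone (2 of 8 and no Fcer2a) and follicular, and gate genes were left out of ratios within gates. Named genes were the 12 highest and 12 lowest with at least 100 UMIs, an interval that excluded 1, no more than 10% of UMIs in 1 cell and detection in 2% or more of a pool's cells, without immunoglobulin and T cell receptor segments and gate genes, plus the members with the 4 largest and 4 smallest ratios in a list; other members were named for their role. The members, lists and rules were chosen with earlier results of these data known. Alternatives were other scalings, count minimums, thinning, a mean over cells, stricter hashtags, unthinned gates, and leaving out dividing, germinal center and plasma cells, cells with foreign markers or the deepest 1% of cells. Python 3.11.15, numpy 2.4.6, scipy 1.17.1, pandas 2.3.3 and matplotlib 3.10.9 were used. The ratio intervals were run on pools simulated with counting error only, which cannot show how they behave when UMIs cluster in cells. Gene positions came from GENCODE on mm10 and promoter windows from RefSeq on GRCm38.p6. A few members of the lists enter counts and medians but are not reported here by name.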

Additional observations from a re-analysis of the deposited data

Results flagged for a closer look

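Gm26740 stood at a ratio of 0.823 (day 4 over day 0; interval 0.770 to 0.880) in knockout B cells against 59.0 in control B cells. Ada stood at 0.709 (0.503 to 1.01) in knockout B cells against 5.43 in control B cells. Both were singled out because the genotypes lay on opposite sides of 1. The difference between the genotypes was not tested, since each group was 1 pool.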

How the results depend on the processing

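Depth and the single pool a day set the limits. The cells were deeper at day 4, the deepest 1% of cells held 4.80% of UMIs at day 0 and 7.16% at day 4, and genes of dividing and plasma cells rest on few of them. Over the 10 alternatives run, medians over all cells ran from 0.57 to 0.80 for activation, 0.62 to 0.82 for cholesterol, −0.48 to −0.35 for glucocorticoid-induced and −0.47 to −0.24 for BAFF and TNF family genes. No paired analysis was possible because each group was 1 pool. Across the alternatives, 914 ratios of single named genes lay inside the gene's main interval and 223 lay outside it. Another 3 turned: Ncapg stood at 0.978 after thinning, and Creld2 at 0.778 and Hsp90b1 at 0.974 without dividing, germinal center and plasma cells. The cause of a change was not tested unless the setting itself removes the cells or genes.

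The number of genes past 1.5-fold was 366 lower under median-of-ratios scaling (67.0% of calls higher, against 51.8%), 200 higher and 438 lower after thinning (31.3% higher), 970 higher at a minimum of 20 UMIs, 274 higher and 242 lower at 200 UMIs, and 370 higher without dividing, germinal center and plasma cells. After thinning, list medians were 1.49 for SOCS, −0.32 for quiescence, 0.076 for BCL2 survival, 0.070 for Toll-like receptor, −0.053 for immunoglobulin constant, 0.20 for secretory, 0.18 for ribosomal, 0.086 for oxidative phosphorylation, −0.032 for mitochondrially encoded, 0.10 for glycolysis, 0.20 for DNA replication, 1.87 for mitosis, −0.11 for germinal center and −0.043 for plasma cell genes. With each cell weighted equally (mean of its own CPM) they were −0.33 for quiescence, 0.16 for MHC class II, −0.0046 for immunoglobulin constant, 0.13 for secretory, 0.16 for ribosomal, 0.081 for oxidative phosphorylation, 0.20 for DNA replication, 1.53 for mitosis, 1.19 for germinal center, 0.14 for plasma cell, −0.036 for heat shock and 0.070 for proteasome genes. Without dividing, germinal center and plasma cells they were 0.16 for MHC class II, 0.046 for secretory, 0.16 for ribosomal, −0.040 for mitochondrially encoded, 0.38 for DNA replication, 1.85 for mitosis, 0.55 for germinal center, −0.18 for plasma cell and 0.10 for heat shock genes. Without the deepest 1% of cells they were 0.46 for immunoglobulin constant, 0.23 for secretory, 0.46 for DNA replication, 1.45 for mitosis and 0.066 for heat shock genes.

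Median-of-ratios scaling gave 0.18 for MHC class II, −0.071 for immunoglobulin constant, 0.22 for ribosomal and 0.012 for mitochondrially encoded genes, and totals without immunoglobulin, ribosomal and mitochondrial genes gave 0.17 for ribosomal and −0.036 for mitochondrially encoded genes. At a minimum of 200 UMIs the medians were 0.87 for SOCS, −0.24 for homing, −0.13 for BCL2 survival and 0.26 for germinal center genes. Immunoglobulin constant genes stood at −0.035 under a stricter hashtag rule and −0.010 without cells holding foreign markers. On unthinned cells the follicular share ratio was 0.865 and that outside every gate 1.02. With gates drawn on unthinned cells, 189 genes were higher in the follicular and 199 in the marginal zone gate. The medians then were −0.048 for DNA replication and 0.39 for activation genes in the follicular gate. In the marginal zone gate they were −0.13 for cholesterol, 0.39 for DNA replication, −0.70 for glucocorticoid-induced, −0.033 for secretory and −0.18 for MYC genes, and outside every gate 0.81 for mitosis and 0.91 for activation genes. Without dividing cells the medians outside every gate were 0.76 for mitosis and 0.28 for DNA replication genes.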
